A study of Homo sapiens with 6 samples.

Results

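Translation factors are the proteins outside the ribosome that carry it through initiation and elongation, and 46 genes encoding them were followed in the human myeloma cell line KMS27. The genes were chosen by name, with earlier results of these data known. They came from the initiation factors eIF1 to eIF6 with the poly(A)-binding protein PABPC1, the inhibitors EIF4EBP1 and EIF4EBP2, and the elongation factors. They account for 598 of the 215170 transcripts and 47 of the 63677 gene identifiers, since EIF4H has 2 identifiers with the same values. All 46 passed the filter of a mean of at least 1 TPM, an abundance per transcript length within a library. The study compared 3 libraries from KMS27 cells that overexpress HA-TAZ with 3 from cells labelled wild type. The WWTR1 gene product TAZ is a coactivator of transcription under control of the Hippo pathway, HA is a peptide tag, and KMS27 is a long-established culture of malignant plasma cells. The promoter and the clonality of the HA-TAZ cells are not stated, and although HA also stands in the wild type titles, no label says if those controls received a construct. The control columns of the files carry the name scr, which stands in no label. Only the wild type samples were left without columns, so these 3 were assigned to them by elimination and are called control a, b and c. The total RNA had been depleted of ribosomal RNA, and the libraries were made in triplicate. Nothing says that a group's libraries came from separate cultures, so p-values measure the spread between libraries. The deposited TPM add up to the same total in each library, so read depth per library is unknown.

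During initiation, eIF2 brings the initiator tRNA to the small ribosomal subunit, eIF3 holds the scanning complex together, and the cap complex eIF4F recruits the mRNA. EIF1, EIF1A and EIF5 govern the choice of the start codon, after which EIF5B joins the large subunit and EIF6 guards that subunit against premature joining. Elongation then needs eEF1 to deliver tRNAs, eEF2 to move the ribosome and eIF5A to relieve stalling. Plasma cells secrete large amounts of immunoglobulin and depend on this machinery, and many of its mRNAs begin with a terminal oligopyrimidine tract, a run of C and T read by the mTOR pathway.

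WWTR1 was at 293 to 306 TPM in the HA-TAZ libraries and at 1.69 to 2.69 TPM in the controls, the direction the labels state. The 8 plasma cell markers were all detected, with a summed level of 550 to 599 TPM in the HA-TAZ libraries and 653 to 743 in the controls; in scaled TPM, defined below, the sums overlapped, at 622 to 652 and 618 to 643. Of these 8, SLAMF7 rose (log2 fold change 0.95, limma BH-adjusted p = 0.0128), CD38 fell (-0.61, limma BH-adjusted p = 0.0226) and the other 6 did not pass. Markers of other cells were low: the 3 T cell markers summed to 1.24 to 1.40 TPM in HA-TAZ and 2.14 to 2.40 in controls, the 2 epithelial markers to 0.139 to 0.159 and 0.223 to 0.286, and the myeloid, fibroblast and erythroid markers to at most 2.60 in any library. None of the 21 markers was at 0 in all 6 libraries, and the part of these markers in the results was not tested. RN7SL1, RN7SL2 and RN7SK, abundant RNAs that code for no protein, took 26.3% to 27.9% of a HA-TAZ library and 21.2% to 25.7% of a control, while protein-coding genes took 42.2% to 47.4% and 46.9% to 54.5%. Since TPM are shares, values were divided by a factor per library, the median ratio to the mean over 21512 genes, and are called scaled TPM below. On that scale the median tested gene differed by -0.03 on the log2 scale between the groups, against -0.27 in TPM as deposited. A higher scaled TPM thus means higher relative to the typical gene, and in bulk RNA fewer cells with a transcript and less of it per cell cannot be told apart.

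The sequences at the annotated starts show which members carry the tract named above. Of the 46 genes, 37 had a window of 250 bases before to 50 bases after an annotated start in the RefSeq table (build GRCh38.p14, 51 windows in all, while the authors' build was GRCh37). EEF1D, EIF2S2, EIF3A, EIF3E, EIF3G, EIF3H, EIF3L, EIF4EBP1 and PABPC1 had none. An annotated start with C followed by 4 bases that are each C or T occurred in 11 of the 37 genes (29.7%), against 5.14% of 27305 genes in the table and 6.38% of 14039 protein-coding genes. The examples below carry the elongation factors EEF1A1, EEF2 and EEF1B2, the eIF3 subunits EIF3K and EIF3M, and EIF4B, with capitals marking the unbroken pyrimidine run from the annotated start.
EEF1A1 (chr6:73521013-73521042, minus strand): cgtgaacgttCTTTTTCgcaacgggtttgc
EEF2 (chr19:3985444-3985473, minus strand): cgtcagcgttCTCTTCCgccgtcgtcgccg
EEF1B2 (chr2:206159885-206159914, plus strand): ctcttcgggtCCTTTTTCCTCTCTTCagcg
EIF3K (chr19:38619178-38619207, plus strand): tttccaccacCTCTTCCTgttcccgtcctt
EIF3M (chr11:32583821-32583850, plus strand): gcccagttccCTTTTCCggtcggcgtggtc
EIF4B (chr12:53006446-53006475, plus strand): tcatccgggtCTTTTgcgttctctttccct
Of 9 genes in a textbook list of oligopyrimidine mRNAs that had a window, 8 showed such a start, and so did 3 of the other 28, EIF2S3, EIF3D and EIF4A2. The E-box CACGTG, the site of MYC and related factors, lay in the windows of 9 of the 37 genes (24.3%) against 8.77% of all genes and 11% of protein-coding genes. The E-boxes of EIF4A3 and EIF3K, which passed the expression test below, and of EIF4B and EIF4E, which did not, are shown with the motif in capitals.
EIF4A3 (chr17:80147232-80147261, minus strand): ccagttccctttCACGTGacgaagagtgcc
EIF3K (chr19:38619073-38619102, plus strand): cgaggaagaagtCACGTGgcagccggaaag
EIF4B (chr12:53006422-53006451, plus strand): gcccgctataatCACGTGattgcctcatcc
EIF4E (chr4:98929188-98929217, minus strand): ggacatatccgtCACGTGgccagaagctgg
The TEAD motif GGAATG, the site through which TAZ is known to reach DNA, lay in 7 of the 37 genes (18.9%). That share was near the 16.7% of all genes and 15.6% of protein-coding genes. The 7 genes were EEF1B2, EIF2B4, EIF3M, EIF4G1, EIF4G2, EIF4G3 and EIF5. The CHOP-ATF4 motif TGATGNAAN, known from stress-induced genes, was in none of the 37 genes' windows and in 4.45% of all genes. Both strands were searched, CACGTG reads the same on both, no motif is contained in another, a gene counted if any of its listed windows held the motif, and a match describes letters only.

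In HA-TAZ cells 7 of the 46 translation factors rose and none fell, at 4.67% and 2.63% of all 22651 genes tested and 7.5% and 2.18% of the 11666 protein-coding genes (limma, p adjusted by the Benjamini-Hochberg procedure, abbreviated BH, under 0.05). The 7 were EIF6, EIF5A, EIF5, EIF1, EIF4A3, EIF3I and EIF3K, with fold changes from 1.16 to 1.60 in scaled TPM. They make up 15.2% of the members. At an unadjusted p under 0.05, 21 members were higher (16.6% of all genes) and none lower (14.1%). Among the 11666 protein-coding genes, 3031 were higher and 1162 lower by limma at that limit. The log2 fold change lay above 0 in 40 members and below 0 in 6, with a median of 0.12 against -0.03 over all genes and 0.06 over protein-coding genes. In scaled TPM the groups did not overlap in 24 members, all higher in HA-TAZ, where 20.2% of all genes were higher and 18.3% lower. The background of protein-coding genes leaned upward, with 3666 of 11666 higher without overlap and 1632 lower. In TPM as deposited the direction turned for many: 38 of the 46 log2 fold changes lay below 0, EIF6 alone rose, and EIF4B, EIF4G3 and EIF2B5 fell, at 1.15% of genes called higher and 13.5% lower. In deposited TPM 3 members were higher without overlap and 15 lower, at 4.41% and 43.6% of genes. Among the 11666 protein-coding genes, 681 were higher and 5282 lower without overlap on that scale. Most members lay above the median of all tested genes, coding or not, 40 of 46 in scaled and 36 of 46 in deposited TPM. A factor per library shifts members and that median nearly alike, so these counts are not independent of each other. With TPM scaled to protein-coding genes 2 members rose, EIF5 and EIF6, none fell, and 24 of 46 lay above 0, at 2.04% of genes called higher and 5.31% lower. With a filter at a mean of 5 TPM instead of 1, which tests fewer genes, 11 rose and none fell, at 12% and 5.76%. With that filter 34 of 46 members lay above the median of the tested genes. Leaving out any HA-TAZ library or control b left no member past the threshold; without control a EIF1, EIF5 and EIF6 remained, and without control c EIF5.

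**Figure D1:**
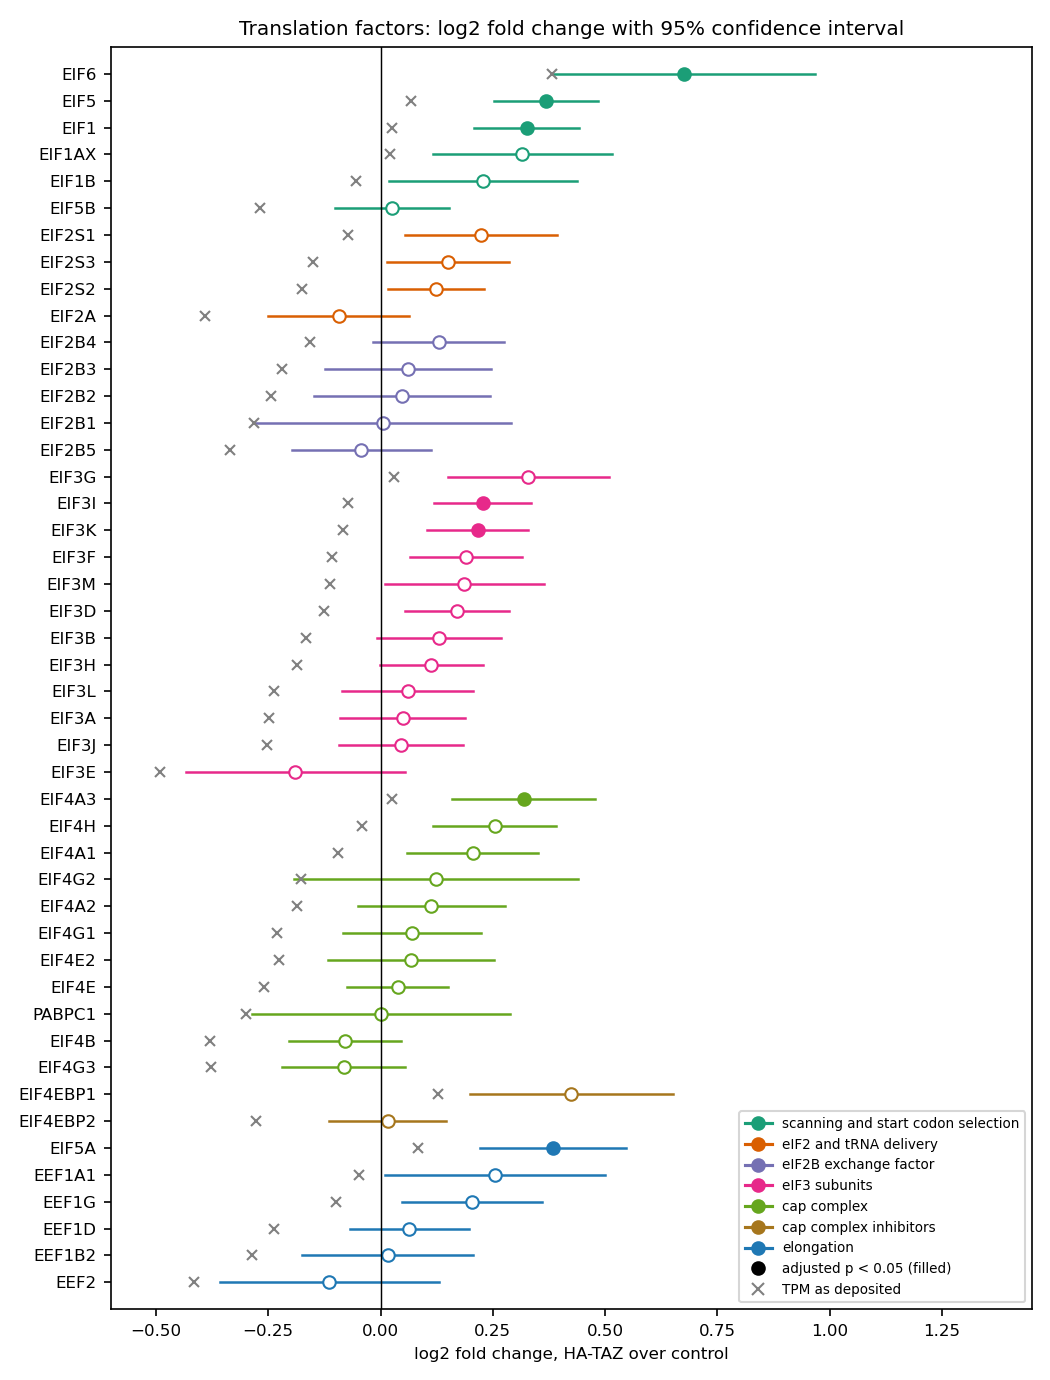
Log2 fold change of each of the 46 translation factors, HA-TAZ over control, in scaled TPM (circles) with 95% confidence intervals (lines), grouped by role, and in TPM as deposited (crosses). Filled circles passed limma's test (adjusted p under 0.05); circles lie above 0 for 40 members, while 38 crosses lie below 0.

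Of the 6 factors grouped under scanning and start codon selection, 3 rose, at 4.67% of all tested genes and 7.5% of protein-coding genes called higher. Their median log2 fold change was 0.32. The group also holds EIF5B and EIF6, which act at the joining of the large subunit. Differences between the small role groups were not tested. EIF6, which binds the large subunit and keeps it from joining early, was at 53.3, 47.6 and 49.8 scaled TPM in the HA-TAZ libraries and at 25.9, 33.5 and 34.6 in the controls. All 3 HA-TAZ libraries lay above all controls, also in deposited TPM, with 45.9, 45.8 and 44.0 against 31.1, 36.3 and 36.3. Its log2 fold change of 0.67 (95% interval 0.38 to 0.97, limma BH-adjusted p = 0.037) was the highest of the 46, and it stayed called in deposited TPM at 0.38 (limma BH-adjusted p = 0.0374). EIF5, the GTPase-activating protein that makes eIF2 hydrolyse its GTP at the start codon, was at 272, 267 and 262 scaled TPM against 214, 209 and 197. The groups did not overlap, and EIF5 rose by a log2 fold change of 0.37 ± 0.047 (SE, limma BH-adjusted p = 0.0186), against 0.069 in deposited TPM. EIF1, which keeps the scanning complex open and guards against wrong start codons, was at 743, 743 and 724 scaled TPM against 611, 576 and 577. Again all HA-TAZ libraries were higher, and EIF1 rose by 0.33 ± 0.048 on the log2 scale (SE, limma BH-adjusted p = 0.0261), while deposited TPM gave 0.025 with overlapping groups. Of the TPM of EIF1, 47.6% in HA-TAZ and 51.6% in controls lay in ENST00000469308.1, annotated as a processed transcript, not as coding. For EIF5, 53.2% and 56.8% lay in transcripts annotated as retained introns. EIF1AX, the partner of EIF1 in scanning, was at 49.9, 53.8 and 51.0 scaled TPM against 36.9, 42.2 and 45.0, without overlap, but missed the threshold (log2 fold change 0.32, limma BH-adjusted p = 0.0689). EIF1B, a close relative of EIF1, had 0.23 and EIF5B, the subunit-joining GTPase, had 0.025, and neither passed. As a share of the TPM of protein-coding genes, a scale that does not use the factors, the 6 genes together took 0.231%, 0.235% and 0.237% in HA-TAZ and 0.206%, 0.198% and 0.201% in controls, without overlap, while in deposited TPM their sums overlapped. EIF1 made up most of the sum, with a mean of 665 of 1041 deposited TPM in HA-TAZ and 655 of 1016 in controls. The sum thus says little of the less abundant members.

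**Figure D2:**
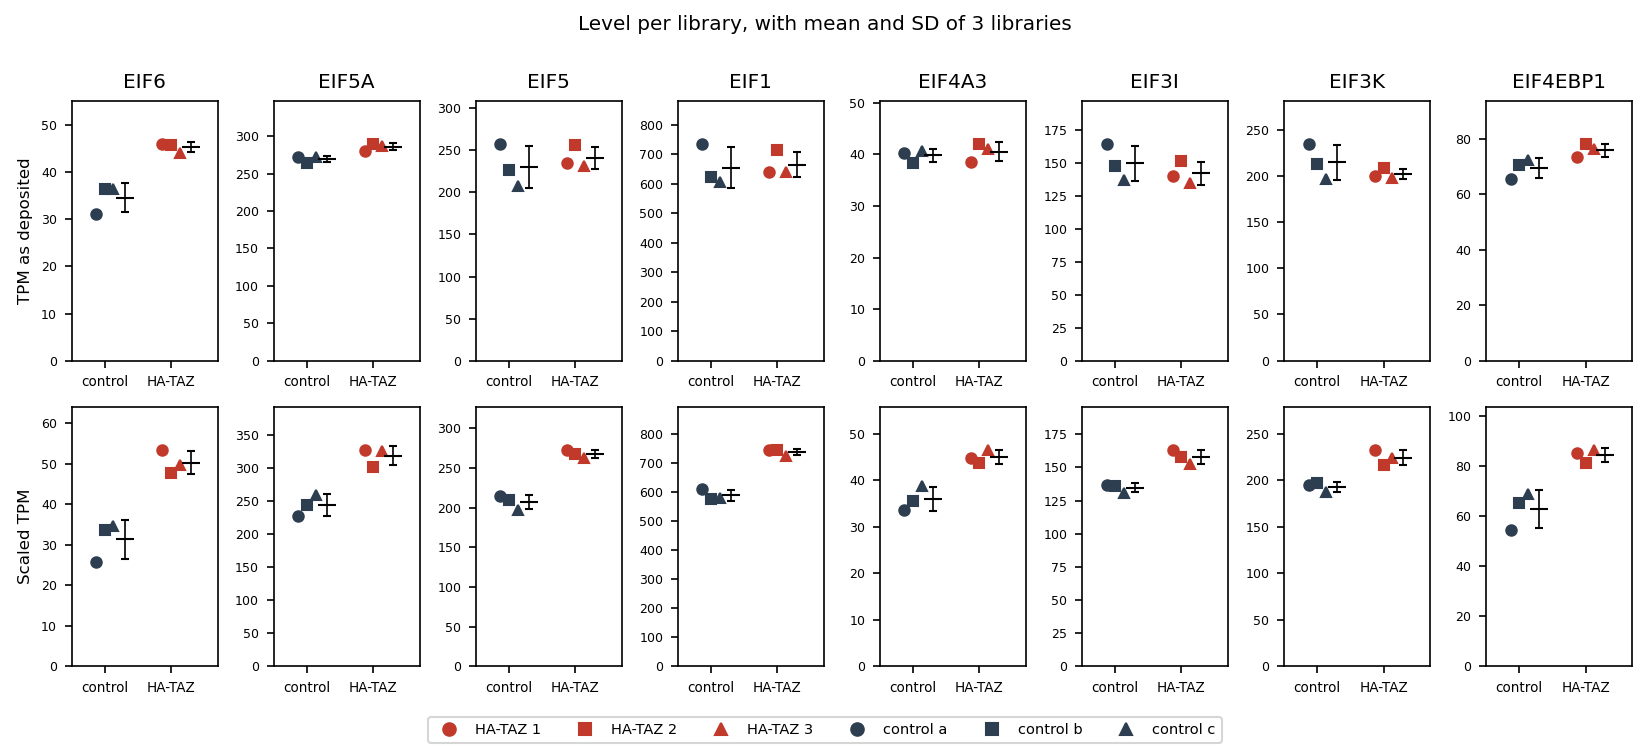
Level of the 7 called translation factors and of EIF4EBP1 in each library, in TPM as deposited (top row) and scaled TPM (bottom row), with mean and SD of 3 libraries beside the points. Each vertical axis starts at 0; in scaled TPM the groups do not overlap in any of the 8 genes, in deposited TPM only EIF6, EIF5A and EIF4EBP1 are free of overlap.

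The eIF2 complex and its exchange factor eIF2B, the targets of stress signalling to initiation, held no called member. Among all tested genes 4.67% were called higher and 2.63% lower, among protein-coding genes 7.5% and 2.18%. The 3 subunits of eIF2, EIF2S1, EIF2S2 and EIF2S3, had log2 fold changes of 0.22, 0.12 and 0.15, each with groups that did not overlap in scaled TPM and with limma BH-adjusted p from 0.097 to 0.135. EIF2A, a separate protein that can deliver tRNA without eIF2, was at 83.4, 80.3 and 75.8 scaled TPM against 89.3, 87.4 and 79.2. These groups overlapped, and its log2 fold change of -0.093 (interval -0.25 to 0.064) was among the 3 lowest of the members. The 5 subunits of eIF2B, the complex that recharges eIF2 with GTP, ranged from -0.043 for EIF2B5 to 0.13 for EIF2B4, with a median of 0.05. Only EIF2B4 of the 5 showed groups without overlap in scaled TPM, higher in HA-TAZ. So did 20.2% of all tested genes and 3666 of 11666 protein-coding genes. EIF2B5, the catalytic subunit, was at 35.0, 31.7 and 30.7 scaled TPM in HA-TAZ and 32.3, 34.4 and 33.7 in controls, which overlap. In deposited TPM EIF2B5 was at 30.1, 30.5 and 27.2 against 38.8, 37.3 and 35.4, and there it fell, with a log2 fold change of -0.34 (limma BH-adjusted p = 0.039). As a share of the TPM of protein-coding genes the eIF2B subunits together took 0.0235% ± 0.000525 in HA-TAZ and 0.0250% ± 0.000593 in controls (SD, n = 3), lower without overlap.

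The eIF3 complex, the scaffold of the initiation complex, was measured through 12 subunits, of which EIF3I and EIF3K rose and none fell (limma, BH). Of all tested genes 4.67% were called higher and 2.63% lower, of protein-coding genes 7.5% and 2.18%. The median log2 fold change of the subunits was 0.15 and 11 of the 12 lay above 0. In scaled TPM 8 had groups without overlap, all higher, at 20.2% of all tested genes and 3666 of 11666 protein-coding genes. EIF3I, a subunit of the peripheral module that also holds EIF3B and EIF3G, was at 163, 158 and 153 scaled TPM against 137, 136 and 131. Its log2 fold change was 0.23 ± 0.044 (SE, limma BH-adjusted p = 0.042), and -0.072 in deposited TPM. EIF3K, a small peripheral subunit whose oligopyrimidine start and E-box are shown above, was at 232, 217 and 224 scaled TPM against 195, 196 and 187. It rose by 0.22 ± 0.046 (SE, limma BH-adjusted p = 0.0486), and deposited TPM gave -0.084, so both subunits turn below 0 on that scale. EIF3G had a larger difference, 0.33, but a wider interval of 0.15 to 0.51 and missed the threshold (limma BH-adjusted p = 0.0536). EIF3E had the lowest log2 fold change of all 46 members. This subunit binds the initiation scaffold and is one of the oligopyrimidine list, and it was at 515, 485 and 422 scaled TPM against 591, 528 and 502. The HA-TAZ values were mostly lower but the groups overlapped, and the difference of -0.19 (interval -0.43 to 0.054, limma BH-adjusted p = 0.249) did not pass. The difference between subunits was not tested as such. The remaining subunits, EIF3A, EIF3B, EIF3D, EIF3F, EIF3H, EIF3J, EIF3L and EIF3M, ranged from 0.047 to 0.19.

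Among 11 genes of the cap complex and its helpers, 1 rose, the median log2 fold change was 0.07 and none fell (limma, BH). That is near the 7.5% of protein-coding genes called higher, where all tested genes gave 4.67%. The gene that rose, EIF4A3, is a helicase related to EIF4A1 but is known as a core part of the exon junction complex rather than of eIF4F. EIF4A3 was at 44.8, 43.7 and 46.5 scaled TPM in HA-TAZ and 33.6, 35.4 and 38.8 in controls, and all HA-TAZ libraries were higher. It rose by 0.32 ± 0.064 on the log2 scale (SE, limma BH-adjusted p = 0.046), against 0.025 with overlapping groups in deposited TPM. EIF4H, a cofactor of the EIF4A helicases, missed the threshold at 0.25 (limma BH-adjusted p = 0.0523). Both identifiers of EIF4H together gave 105 ± 7.0 TPM in HA-TAZ and 108.5 ± 3.8 in controls (SD, n = 3). EIF4B, the other cofactor of these helicases, was at 187, 194 and 184 scaled TPM against 197, 209.7 and 191, with overlap and a log2 fold change of -0.079. EIF4E, the cap-binding protein and the most limiting part of eIF4F in many cells, was at 87.4, 88.4 and 82.0 scaled TPM against 83.2, 85.5 and 82.1. Those values overlap, and the interval of its log2 difference ran from -0.074 to 0.15. The scaffold EIF4G1 had 0.069 and its relative EIF4G3 had -0.082. PABPC1, which links the poly(A) tail to EIF4G, was at 2066, 2154 and 1854 scaled TPM against 2279, 2045 and 1766, with a log2 fold change of 0.0013 and an interval of -0.29 to 0.29.

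Ratios between related members do not depend on the scaling. EIF4EBP1 and EIF4EBP2 are inhibitors that hold EIF4E away from EIF4G until mTOR phosphorylates them. Their ratio was 2.45, 2.31 and 2.60 in HA-TAZ and 1.54, 1.90 and 2.13 in controls. All HA-TAZ values lay above all controls (exact two-sided permutation p = 0.1, the smallest that 3 against 3 libraries allow, and 0.3 after Benjamini-Hochberg adjustment over 6 ratios). EIF4EBP1 itself was at 85.4, 81.3 and 86.5 scaled TPM against 54.6, 65.2 and 69.0 and just missed the threshold, with a log2 fold change of 0.42 (interval 0.20 to 0.65, limma BH-adjusted p = 0.0509). Its groups stayed apart in deposited TPM, with 73.5, 78.1 and 76.5 against 65.7, 70.6 and 72.5. EIF4EBP2 was at 34.9, 35.1 and 33.2 against 35.6, 34.2 and 32.3 scaled TPM, which overlap. The ratio of the scaffolds EIF4G1 to EIF4G3 was 5.91, 5.88 and 5.75 in HA-TAZ and 5.53, 5.28 and 4.98 in controls, also without overlap and at the same p-values. EIF4G1 was at 251, 259 and 226 scaled TPM against 241, 231 and 228, and EIF4G3 at 42.4, 44.0 and 39.4 against 43.6, 43.7 and 45.9. The ratios of EIF4A1 to EIF4A2, EIF1 to EIF1B, EIF4E to EIF4E2 and EIF4G1 to EIF4G2 overlapped, with exact permutation p from 0.2 to 1 and adjusted values from 0.4 to 1. For EIF4A1 to EIF4A2, the paired helicases of eIF4F, the mean ratio was 0.885 ± 0.0441 in HA-TAZ and 0.829 ± 0.0127 in controls (SD, n = 3). EIF4A1, the main helicase of eIF4F, was at 195, 176 and 173 scaled TPM in HA-TAZ and 154, 163 and 154 in controls, all HA-TAZ libraries higher but without a call (log2 fold change 0.21, limma BH-adjusted p = 0.0857). EIF4A2 was at 205 ± 13.7 scaled TPM in HA-TAZ and 189.6 ± 9.06 in controls (SD, n = 3), with overlap (log2 fold change 0.11). EIF1B was at 18.6, 16.3 and 16.1 against 14.4, 15.5 and 13.2 scaled TPM, again higher in all HA-TAZ libraries. EIF4E2, a cap-binding relative of EIF4E that does not recruit EIF4G, was at 39.2, 39.7 and 37.6 against 38.6, 39.4 and 33.2, with overlap (log2 fold change 0.069).

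The 6 elongation factors took 51.8% of the summed TPM of all members, and 1 of them rose, at 4.67% of all tested and 7.5% of protein-coding genes. EIF5A, the factor modified with hypusine that helps the ribosome past stalling sequences, was at 327, 301 and 325 scaled TPM against 227, 244 and 259. The groups did not overlap, and EIF5A rose by 0.38 ± 0.066 on the log2 scale (SE, limma BH-adjusted p = 0.0356). In deposited TPM it was at 281, 289 and 288 against 272, 265 and 273, still without overlap but with a log2 difference of only 0.084 that did not pass. EEF1A1, which carries tRNAs to the ribosome and was the most abundant member, was at 4919.9, 4728 and 4535 scaled TPM against 3569.9, 4247 and 4101. Its HA-TAZ libraries were all higher, at a log2 fold change of 0.25 that did not pass (interval 0.0089 to 0.50, limma BH-adjusted p = 0.152), and deposited TPM gave -0.047. The exchange factor of EEF1A1 consists of EEF1B2, EEF1D and EEF1G, which had 0.016, 0.064 and 0.20. EEF1B2 was at 665, 609 and 557 scaled TPM against 595, 628 and 583, with overlap. EEF2, the translocase, was at 1396, 1394 and 1285 scaled TPM against 1548, 1591 and 1287, also with overlap, at a log2 fold change of -0.11 (interval -0.36 to 0.13).

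**Figure D3:**
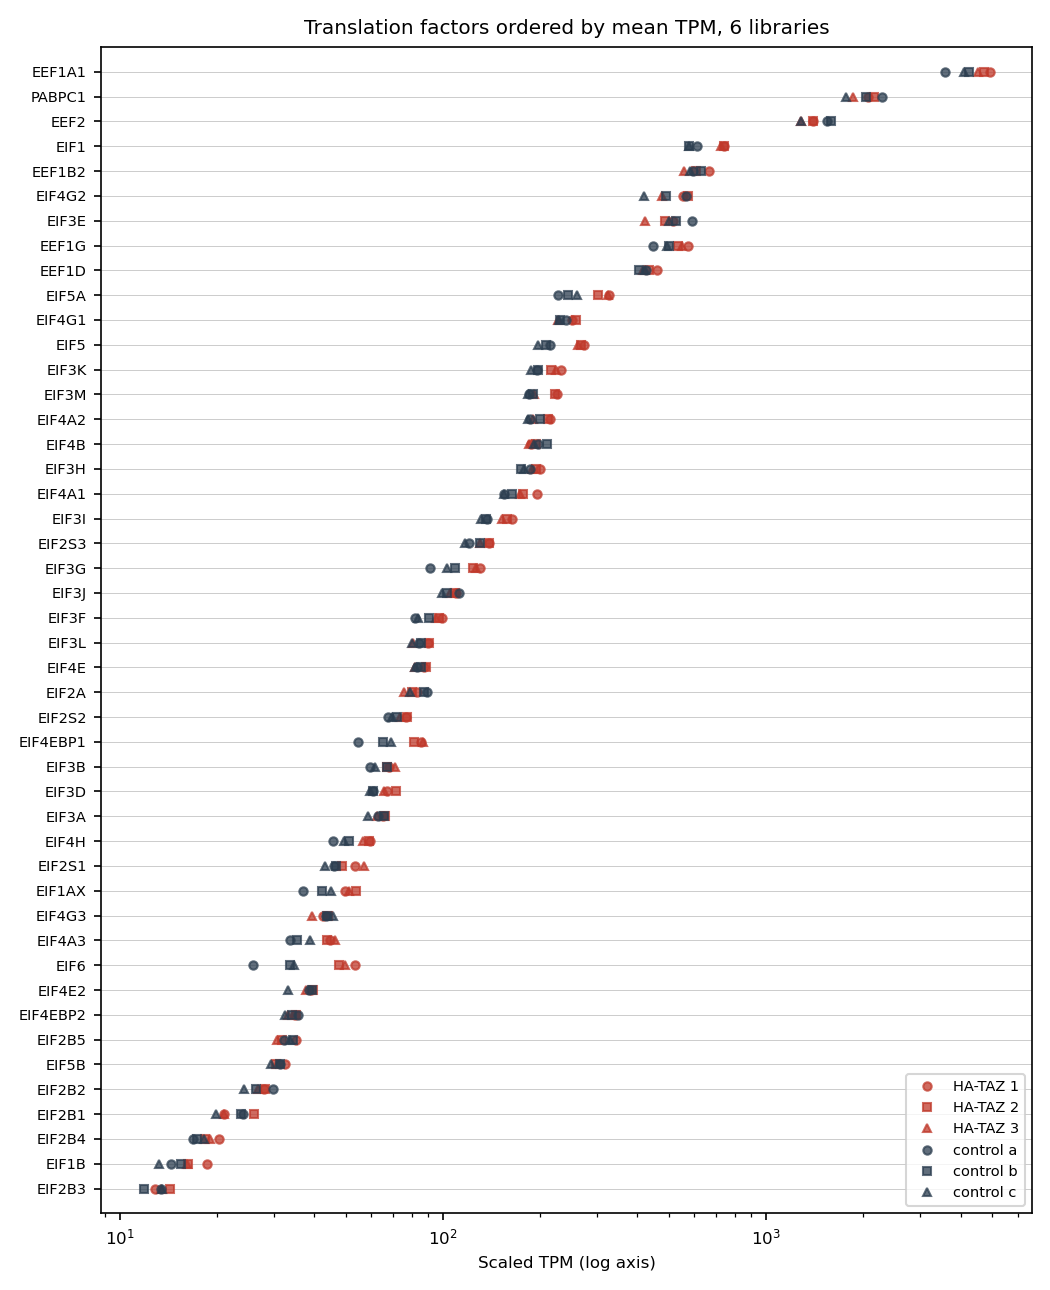
Scaled TPM of the 46 translation factors in each of the 6 libraries, on a log axis, ordered by mean TPM. The 5 most abundant, EEF1A1, PABPC1, EEF2, EIF1 and EEF1B2, hold 62.0% of the members' TPM.

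Levels spanned more than the differences between groups. In TPM, which is per transcript length, EEF1A1 stood at the top with 4262 ± 267 in HA-TAZ and 4400.1 ± 175 in controls, followed by PABPC1, EEF2, EIF1 and EEF1B2. PABPC1 and EEF2 overlap in their libraries' values, with PABPC1 at 1778, 2069 and 1639.8 TPM in HA-TAZ and 2738, 2216 and 1855 in controls and EEF2 at 1201, 1339.7 and 1136 and 1860.3, 1724 and 1352. EIF2B3, a subunit of eIF2B, was the lowest, at 12.2 ± 1.37 TPM in HA-TAZ and 14.4 ± 1.65 in controls. All 46 members together held 13771 ± 1030 deposited TPM in HA-TAZ and 15552 ± 1325 in controls (SD, n = 3), with overlap. In scaled TPM the sums were 15805, 15483 and 14519 against 13987, 14475 and 13482, without overlap. As a share of the TPM of protein-coding genes they were 3.10% ± 0.0532 and 3.09% ± 0.0672, with overlap. The spread between libraries in scaled TPM was a median coefficient of variation of 4.05% in HA-TAZ and 5.37% in controls. Control a held the highest deposited TPM of the 3 controls in 36 of 46 members.

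Of the 16 members with a textbook oligopyrimidine mRNA, 1 rose, EIF3K, and of the other 30 members 6 rose, where 4.67% of all tested genes and 7.5% of protein-coding genes did. The median log2 fold changes were 0.06 and 0.13, and 12 of 16 against 28 of 30 lay above 0. The difference between these sets was not tested. The 4 listed genes below 0 were EIF3E, EEF2, EIF2A and EIF4B, so the listed mRNAs held 4 of the 6 members below 0.

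The make-up by transcript is described for EEF2 and EIF3E, whose gene totals had log2 fold changes below 0. These genes were picked from among the members. How many transcripts of all genes have a share without overlap is not given here. For EEF2, 92.7% of the estimated counts implied by the authors' deposited table belonged to the coding transcript ENST00000309311.6. This transcript had a natural log effect of 0.263 (HA-TAZ over control, a fold of 1.30) (q = 0.00208), as given by the authors' deposited table. A coding fragment of 352 bases in GENCODE release 29, ENST00000600794.1, had the largest TPM, since TPM divides by length, and the authors' deposited table lists its effect as -0.191 (q = 0.431). The share of the long transcript in the TPM of EEF2 was 47.6% ± 3.4 in HA-TAZ and 34.8% ± 7.0 in controls (SD, n = 3), without overlap (exact permutation p = 0.1, the smallest possible). For EIF3E, 70.5% of the TPM lay in its main coding transcript in HA-TAZ and 58.9% in controls, without overlap. Its second transcript, annotated for nonsense-mediated decay, took 6.39% and 13.3%, also without overlap. Neither transcript of EIF3E passed in the authors' deposited table, where the effect of the coding one is 0.0759 (q = 0.786) and that of the other -0.827 (q = 0.173).

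Taking for each member the transcript with the most implied counts, a choice made after the values were seen, the effect in the authors' deposited table lay above 0 for 43 of 46 and below 0 for EIF4B, EIF4G1 and EIF4G3. Of the 46, 24 passed a q-value of 0.05 upwards and none downwards by the authors' deposited table, where 20.9% and 2.79% of such transcripts of 11665 tested protein-coding genes did. That background was not matched for count level, and its share above 0 is not given here. In the authors' deposited table the most counted transcripts of EIF1 (q = 0.126) and EIF5 (q = 0.108), genes called above, did not pass. Of the 6 members whose gene totals lay below 0, 4 had a positive effect there, EEF2, EIF2A, EIF2B5 and EIF3E. Over all 498 member transcripts with statistics in the authors' deposited table, 46 (9.24%) passed that q-value upwards and 5 (1.0%) downwards, against 4.08% and 1.6% of 109487 transcripts. At a q-value under 0.01 these counts were 30 and 1, against 2.42% and 0.633%. The 5 negative ones at 0.05 belonged to EEF1B2, EIF3E, EIF3J and PABPC1. The most counted transcripts with the largest effects belonged to EIF6, with a fold of 1.80 in the authors' deposited table, EIF5A with 1.71, EIF4A1 with 1.56 and EIF4G2 with 1.46. By limma on scaled transcript TPM, 2 of 403 member transcripts rose and none fell (0.46% and 0.11% of 57448 transcripts), at 234 above 0 and 169 below. The 2 were the coding transcript ENST00000339995.5 of EIF4G2, an EIF4G relative for cap-independent initiation, with a log2 fold change of 0.52 (limma BH-adjusted p = 0.041), and the retained-intron transcript ENST00000559249.1 of EIF5, with 0.61 (limma BH-adjusted p = 0.0384). EIF4G2 as a gene had 0.12, with 552, 575 and 475 scaled TPM against 564, 492 and 420.3.

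Shares of a gene's TPM in coding transcripts were higher in HA-TAZ without overlap in 23 of 46 members and lower in 4, at 20.7% and 3.36% of 11537 protein-coding genes. The share in transcripts annotated as retained introns could be computed for 38 members. It was lower in HA-TAZ without overlap in 14, higher in EEF1D and EIF3L, and overlapped in 22, at a background of 24.8% lower and 3% higher among 6695 protein-coding genes. EIF4A1 had 29.8%, 25.8% and 25.8% of its TPM in such transcripts in HA-TAZ and 41.6%, 35.2% and 30.9% in controls. EEF2 had 2.28%, 2.26% and 2.31% against 17.8%, 7.41% and 2.91%, a difference that control a and control b carried. EIF5, whose transcripts are mostly of this class, had 53.2% ± 1.11 against 56.8% ± 0.874, and EIF3L, at 73.5% ± 2.87 against 67.1% ± 2.70, went the other way. The share in transcripts annotated for nonsense-mediated decay was lower without overlap in 4 of 23 members and higher in none, at 9.03% and 7.44% of 4837 genes. Over all members, retained-intron transcripts held 12.9% ± 0.346 of the TPM in HA-TAZ and 14.5% ± 1.08 in controls (SD, n = 3), without overlap. The same class held 8.71% to 9.11% of the TPM of protein-coding genes in HA-TAZ and 10.03% to 10.27% in controls.

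**Figure D4:**
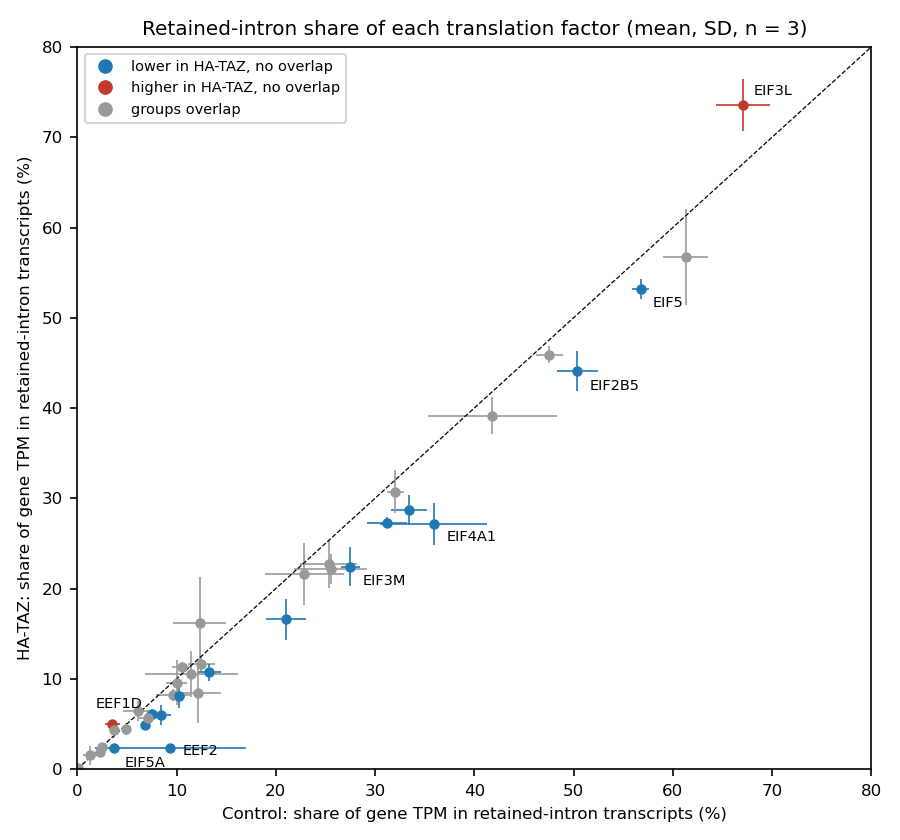
Share of each gene's TPM in retained-intron transcripts, controls on the horizontal and HA-TAZ on the vertical axis, in percent, as mean and SD of 3 libraries for 38 members; the dashed line marks equal shares. Of the 38, 14 lie below the line without overlap between groups, and EEF1D and EIF3L lie above it without overlap. The others, on either side of the line, overlap.

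Several members share much of their sequence with other annotated genes. Any other gene identifier counted, also one at the same locus, so shared sequence need not mark a copy. In their most abundant coding transcript in GENCODE release 29, a later release than the build of the files, more than 50% of the 31-base words also occur in other genes for 8 members: EIF4A1 (100%), EEF1G (99.9%), EEF1A1 (75.3%), EEF1D (72.7%), EEF1B2 (65.4%), EIF3F (58.4%), EIF5A (56.6%) and EIF4E (54.0%). Of the 7 that rose, EIF5A is the one above that mark. Adding the pseudogenes named by a member's symbol, P and a number left the number called at 7. EIF5AL1, which holds 51.1% of the words of EIF5A, is not named that way and was not added. The pseudogenes of EEF1A1 held 21.9 to 26.8 TPM per library, beside 4233, 4543 and 4010.4 TPM of the gene in HA-TAZ and 4289.6, 4601 and 4309 in controls.

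Members also host small RNAs, 19 in 11 host genes in the same annotation, of which 14 were tested. They lie within the gene's bounds on the same strand, and their place in introns or exons was not examined. SNORD10 within EIF4A1 rose (log2 fold change 1.39, limma BH-adjusted p = 0.045), at 9.24, 11.7 and 14.1 TPM against 3.70, 3.87 and 7.15, and none of the 14 fell (2.14% and 3.43% of 1401 small RNA genes). EIF4H hosts MIR590, whose 3p arm is named in the title of the series as part of an axis with TAZ. The mature arms are shown from RefSeq (GRCh38.p14), with the seed, bases 2 to 8, in capitals.
hsa-miR-590-3p (chr7:74191253-74191273, plus strand): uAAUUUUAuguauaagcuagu
hsa-miR-590-5p (chr7:74191213-74191234, plus strand): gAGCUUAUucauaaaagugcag
The MIR590 gene was listed at 18.5, 14.0 and 12.3 TPM in HA-TAZ and 23.2, 21.4 and 28.2 in controls. The log2 fold change in scaled TPM was -0.39 and did not pass (limma BH-adjusted p = 0.247), with overlapping scaled values. The mature arms were not measured here.

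Other genes of translation control were given by lists chosen beside the members. Among 18 kinases and regulators of initiation, 4 rose and 1 fell, at the 4.67% and 2.63% of all tested genes and 7.5% and 2.18% of protein-coding genes given above. PPP1R15A, the stress-induced subunit that directs a phosphatase to eIF2, was at 47.4, 47.0 and 45.5 scaled TPM against 23.3, 26.0 and 24.4, a fold of 1.90. All HA-TAZ libraries were higher, also in deposited TPM, and its log2 fold change was 0.90 ± 0.054 (SE, limma BH-adjusted p = 0.00269). RPS6KB2, a kinase downstream of mTOR, rose to 33.7, 32.5 and 33.3 against 19.8, 23.0 and 23.3 scaled TPM, and stayed free of overlap in deposited TPM (log2 fold change 0.57, limma BH-adjusted p = 0.019). PDCD4, an inhibitor that binds EIF4A, fell to 60.4, 60.1 and 55.0 against 87.5, 85.5 and 75.9 scaled TPM, lower on both scales (log2 fold change -0.50, limma BH-adjusted p = 0.025). The other 2 that rose were MKNK2, a kinase of EIF4E, at 0.34, and PPP1R15B, the constitutive relative of PPP1R15A, at 0.29; in deposited TPM the ratio of PPP1R15B was 0.999.

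The same 4.67% of all tested genes and 7.5% of protein-coding genes called higher are the background of the next 4 lists, for which 2.63% and 2.18% were called lower. Of 11 other initiation factors and poly(A)-binding proteins, MCTS1, a factor of reinitiation, and PABPN1, the nuclear poly(A)-binding protein, rose, by 0.36 and 0.20 on the log2 scale. Of 6 genes of termination and recycling, PELO and ABCE1, which together release stalled ribosomes, rose, by 0.40 and 0.28. PELO was at 8.28, 8.18 and 8.14 scaled TPM against 5.73, 6.08 and 6.11, and ABCE1 at 79.9, 82.4 and 74.9 against 63.8, 67.4 and 63.6. Of 9 mitochondrial translation factors, TSFM, the exchange factor of the mitochondrial elongation factor, rose by 0.22, and of 10 partners and modifying enzymes of elongation factors none was called (limma, BH; 2 higher and none lower at an unadjusted p under 0.05). No gene of these last 4 lists fell. In deposited TPM the ratios of PABPN1, ABCE1 and TSFM turned to 0.933, 0.989 and 0.952, with overlapping groups.

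**Figure D5:**
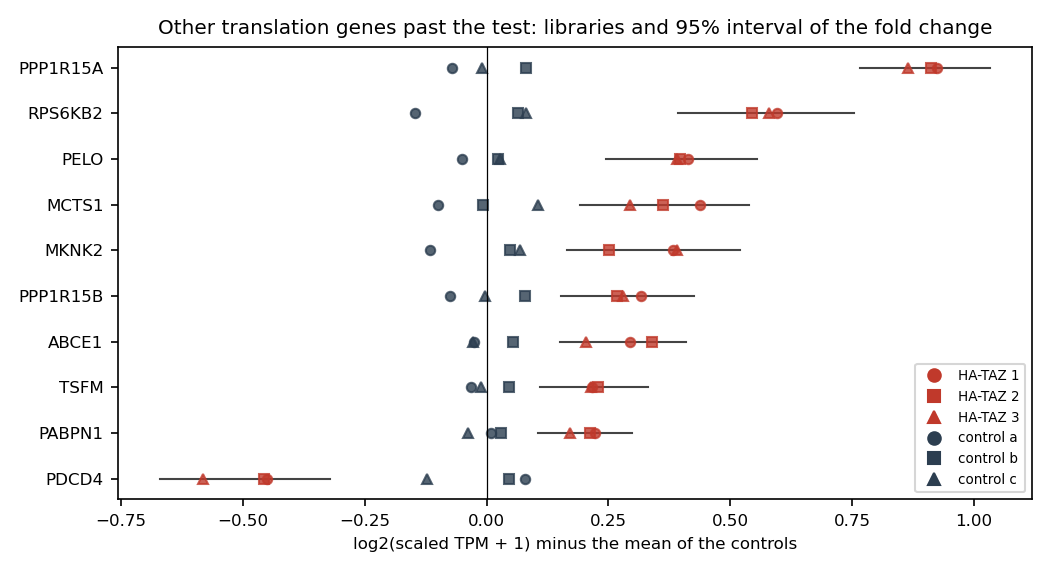
The 10 called genes of the other translation lists: each library's log2(scaled TPM + 1) minus the mean of the controls (points) and the 95% confidence interval of limma's log2 fold change (lines). PDCD4 lies below 0 in HA-TAZ and the other 9 above, with PPP1R15A the farthest at 0.90.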

How the data were processed

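Total RNA of KMS27 cells was sequenced in 6 libraries, 3 HA-TAZ and 3 wild type. Per the submitters' processing notes the authors used kallisto 0.46.0, sleuth 0.30.0 and the build GRCh37; annotation release and strand setting are not given in the sources used here. The authors deposited TPM per transcript and a table with effects as natural log, p-values and q-values per transcript, per the file headers. Columns named scr, a name in no label, were taken as wild type by elimination and called control a, b and c. The members and lists were chosen with earlier results of these data known. TPM were summed per Ensembl gene, divided by median-of-ratios factors (0.860 to 1.20), and tested as log2(scaled TPM + 1) with limma 3.58.1 (trend, R 4.3.3) over genes averaging 1 TPM or more, with Benjamini-Hochberg adjustment over all 22651. The procedure was also run on simulated data. The planted changes were larger than those of most called members, so that run does not cover differences as small as theirs. The text names every member, in full those called and the 3 highest and 3 lowest by log2 fold change, and called genes of the other lists. Transcript classes came from GENCODE release 29, which matched 572 of 593 member transcripts. The library sizes were not part of the TPM, so precision was judged from replicate spread. Alternatives covered pseudocount, filter, scaling, trend, summing and leaving out each library.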

Additional observations from a re-analysis of the deposited data

How the results depend on the processing

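The columns of both groups end in the numbers 1 to 3, but nothing ties equal numbers to one culture or one day, and columns of the same number did not deviate together (correlations of deviations from the group means over genes of -0.033, -0.0013 and 0.027). With these numbers as a replicate block (chosen after seeing the data) limma called 3 genes higher and 0 lower, 0 members in either direction (16 higher and 1 lower at an unadjusted p under 0.05), 4 transcripts higher and 0 lower, and 0 member transcripts; HA-TAZ 3 alone of the HA-TAZ libraries correlated best with the control of its own number. Genes called higher numbered 1057 and lower 595; they were 500 and 191 without the filter, 261 and 3068 in TPM as deposited (7.84% of 3329 calls higher, against 64.0% of 1652), 462 and 1203 with TPM scaled to protein-coding genes (27.7% of 1665 higher), and 459 and 297 by limma without trend. With protein-coding scaling the median gene shifted to -0.12. Leaving out a library gave 95 to 365 higher and 23 to 105 lower. Members called higher were 2 without the filter, 11 at a mean of 5 TPM or more (where 12% of genes were called higher), 1 in TPM as deposited with 3 called lower, 2 with protein-coding scaling, 1 without trend, 4 with factors over genes with a mean of 5 TPM or more (chosen after seeing the data) and 0 to 3 without a library. Transcripts called higher and lower (264 and 63) became 108 and 8 without the filter, 1508 and 501 at a mean of 5 TPM or more, 69 higher in TPM as deposited, 135 and 19 without trend, and 13 to 100 and 0 to 23 without a library. Member transcripts called higher were 0 without the filter, in TPM as deposited and without trend, 23 with 3 lower at a mean of 5 TPM or more, and 0 to 1 without a library. At a q-value under 0.01 the authors' deposited table left 30 positive and 1 negative. The log2 ratio of the summed members was 0.13, -0.18 as deposited and 0.0068 with protein-coding scaling. For all of these, the cause was not tested.

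Log2 fold changes that turned negative in TPM as deposited were EIF1B -0.055, EIF5B -0.27, EIF2S1 -0.072, EIF2S2 -0.17, EIF2S3 -0.15, EIF2B1 -0.28, EIF2B2 -0.24, EIF2B3 -0.22, EIF2B4 -0.16, EIF3A -0.25, EIF3B -0.17, EIF3D -0.13, EIF3F -0.11, EIF3H -0.19, EIF3I -0.072, EIF3J -0.25, EIF3K -0.084, EIF3L -0.24, EIF3M -0.11, EIF4A1 -0.094, EIF4A2 -0.19, EIF4E -0.26, EIF4E2 -0.23, EIF4G1 -0.23, EIF4G2 -0.18, EIF4H -0.042, PABPC1 -0.30, EIF4EBP2 -0.28, EEF1A1 -0.047, EEF1B2 -0.29, EEF1D -0.24 and EEF1G -0.098. With protein-coding scaling they were EIF5B -0.091, EIF2B1 -0.11, EIF2B2 -0.068, EIF2B3 -0.051, EIF3A -0.069, EIF3H -0.0062, EIF3J -0.072, EIF3L -0.058, EIF4A2 -0.0062, EIF4E -0.080, EIF4E2 -0.048, EIF4G1 -0.050, PABPC1 -0.12, EIF4EBP2 -0.10, EEF1B2 -0.10 and EEF1D -0.055, and with factors over genes with a mean of 5 TPM or more EIF5B -0.031, EIF2B1 -0.049, EIF2B2 -0.0073, EIF3A -0.0075, EIF3J -0.010, EIF4E -0.018, PABPC1 -0.056, EIF4EBP2 -0.040 and EEF1B2 -0.042. Leaving out a library gave EIF5B -0.0051 to 0.047, EIF2B1 -0.089 to 0.063, EIF2B2 -0.018 to 0.12, EIF4E2 -0.0075 to 0.11, PABPC1 -0.096 to 0.086, EIF4EBP2 -0.020 to 0.045 and EEF1B2 -0.042 to 0.085. The remaining members kept their sign under these settings, and every member kept it under pseudocount 0.1, no filter, the filter at 5, no trend, factors over all genes above 0 (chosen after seeing the data), summing per symbol and adding pseudogenes. Depth per library is unknown and limits small differences in the least abundant members.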
